A study of Mus musculus with 2 samples.

Results

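The S100 proteins are small calcium-binding proteins, and 8 of their genes (S100a1, S100a4, S100a6, S100a8, S100a9, S100a10, S100a11 and S100a13) were followed here in macrophages of the mouse peritoneal cavity. The members were taken by name, with every probe set that the array's annotation assigns to that gene and to no other. This left 7 of the 8 genes, read by 10 of the 45101 probe sets. S100a11 had no probe set naming it alone and was not analysed here. The elicited array held RNA of thioglycollate-elicited peritoneal macrophages, collected 3 days after each mouse received 1 mL of 3% thioglycollate, an irritant broth, into the peritoneal cavity. The resident array held RNA of peritoneal macrophages from untreated mice. Both came from C57BL/6J mice, an inbred strain, at 8 weeks of age, and in both the cells adhered to a dish for 2 h before washing. The series' design text speaks of culture overnight instead, so the culture time is uncertain, and how many mice stood behind an array is not stated in the labels.

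An S100 protein holds calcium in a pair of EF-hand loops, and most work as dimers. Calcium exposes a binding face through which the dimer grips other proteins, among them annexins, non-muscle myosin and plasma membrane scaffolds. Some S100 proteins also leave the cell without a signal peptide and act outside it as alarm signals, and S100a8 with S100a9 forms calprotectin, the metal-binding protein known from neutrophils and monocytes.

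With 1 array per group there was no replicate and no test. Values are MAS5 signal intensities, and differences are given as elicited over resident. A background floor of 82.2 was taken from sensory receptor and hair protein families, such as olfactory receptors, and lower signals were raised to it before a ratio was formed. A gene is called measured if its signal exceeded the floor on at least 1 array, and called higher or lower if the elicited signal was 2-fold or more over or under the resident one. The only measurable spread was among probe sets that read 1 gene, with an SD of 0.48 on the log2 scale (1.40-fold) over 4465 genes, which does not cover animals or cultures. RNA of the whole adherent population was measured, so fewer cells of a type and less RNA per cell cannot be told apart.

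Of the 7 genes, 6 exceeded the floor on both arrays, and 4 of these were called higher on the elicited array, against a background of 8.04% called higher and 11.8% called lower among all 11499 measured genes. The 4 were S100a6, S100a10, S100a1 and S100a4. S100a13 and S100a8 lay within 2-fold, none was called lower, and S100a9 did not exceed the floor on either array. The median log2 ratio was 1.81 over the 6 members and -0.03 over all genes. These 6 were in the brightest of 10 classes of genes by mean signal, where 12.8% of 1150 genes were called higher, 4.26% lower, and the median log2 ratio was 0.40. Of the 9 member probe sets over the floor, 6 passed the threshold upward.

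**Figure D1:**
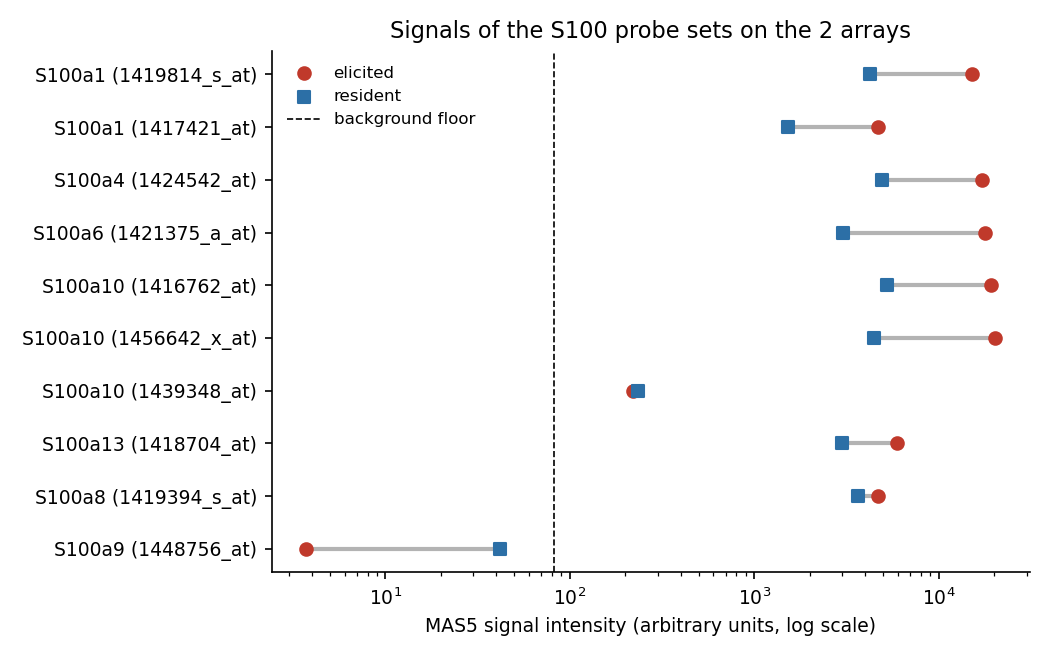
Signal of each S100 probe set on the elicited array (red circles) and the resident array (blue squares), on a log axis in arbitrary MAS5 units, with the background floor of 82.2 dashed. Elicited signals lie to the right of resident ones in S100a1, S100a4, S100a6, S100a13 and S100a8 and in 2 of 3 S100a10 probe sets, while both S100a9 signals lie under the floor.

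S100a6, or calcyclin, binds annexins and the adaptor Cacybp and is known from proliferating and stromal cells. Its probe set had a signal of 17754 on the elicited array, against 3042 on the resident array. This 5.84-fold ratio (log2 2.55) was the highest among the 6 members, and 1.02% of all measured genes had a larger one. S100a4, also called metastasin or fibroblast-specific protein, binds the heavy chain of non-muscle myosin and is known from motile cells, including macrophages and fibroblasts. Its signal was 17103 on the elicited array, against 4929 on the resident array, a 3.47-fold ratio (log2 1.79). Both genes were read by 1 probe set, so neither ratio has a second measurement.

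The ratios of S100a6 and S100a4 stood beside a large difference in markers of mesothelial and fibroblast cells, which line and support the cavity wall. Of 13 such markers measured, 10 were called higher and none lower (median log2 ratio 2.30). The elicited array had all 13 over the floor and the resident array 4, so most of these ratios could only be upward. The summed signal of the list was 18794 on the elicited array, against 898 on the resident array. The collagen gene Col1a2 had a signal of 5452 on the elicited array, against 166 on the resident array, whereas Lum, Pdgfrb and Msln were not measured. Medians of lists hold genes at or below the floor at their bound. The part of these cells in the S100 ratios was not tested.

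Monocyte markers were more often lower than higher. Of 10 measured, 1 was called higher and 5 lower (median log2 ratio -1.01), and their summed signal was 26625 on the elicited array, against 68724 on the resident array. Chil3, a secreted lectin, was the higher one, with a signal of 5993 on the elicited array, against 1910 on the resident array. Plac8, a small cysteine-rich protein of myeloid cells, had a signal of 256 on the elicited array, against 6013 on the resident array. Most of the summed signal came from 2 of the lower markers. Fn1 had 15810 on the elicited array, against 38130 on the resident array, and Hp 1415, against 17044. Which cells the Fn1 and Hp signals came from, monocytes or resident macrophages among them, was not tested. The remaining 4 markers lay within 2-fold, among them Ccr2, with a log2 ratio of -0.43 and a range of -1.52 to 0.29 over its 4 probe sets.

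S100a10, or p11, no longer binds calcium itself and pairs with annexin A2 at the plasma membrane, where the complex gathers plasminogen. Its brightest probe set had a signal of 19195 on the elicited array, against 5253 on the resident array, a 3.65-fold ratio (log2 1.87). A second one had 20290 on the elicited array, against 4478 on the resident array (4.53-fold). The suffix of this second one marks a probe set that can match other sequences too, so its identity is less certain. The third was dim on both arrays, with 219 on the elicited array, against 235 on the resident array. Its log2 ratio of -0.10 pulled the mean over the 3 probe sets to 1.32.

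Among 13 intracellular binding partners of S100 proteins that were measured, 3 were called higher, none lower and 10 neither (median log2 ratio -0.10). The 3 were annexins. Anxa2, the partner of S100a10, had a signal of 27360 on the elicited array, against 4271 on the resident array (6.41-fold), and its other measured probe set had a log2 ratio of 0.99. Anxa1, a binding partner of S100a11 with anti-inflammatory actions, had 40696 on the elicited array, against 10766 on the resident array (3.78-fold), with 0.64 at its other probe set. Anxa5, which binds exposed phosphatidylserine, was 2.74-fold higher. Anxa6, an annexin bound by several S100 proteins, had a log2 ratio of -0.10, with -1.71 at the lowest of its 4 probe sets.

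The remaining partners lay within 2-fold at their brightest probe set or were not measured. Myh9, the non-muscle myosin heavy chain bound by S100a4, had a signal of 8957 on the elicited array, against 10426 on the resident array. Cacybp, the S100a6 adaptor, had 3742 on the elicited array, against 2924 on the resident array. Ahnak, a giant scaffold that binds S100a10 with annexin A2, had a log2 ratio of -0.30 at its brightest probe set but 1.82 at another. Iqgap1, an actin scaffold bound by S100 proteins, had a log2 ratio of 0.93 at its brightest probe set and -0.59 at the lowest of 7. Il1a and Fgf1, secreted proteins whose release can involve S100a13, had log2 ratios of -0.81 and, as a bound, -0.11. Syt1 and Dlc1 were not measured, and Anxa11 was not analysed here.

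The plasminogen system around the S100a10 complex was uneven: of 5 genes measured, 1 was called higher, 1 lower and 3 neither (median log2 ratio 0.43). Plat, tissue plasminogen activator, had a signal of 180 on the elicited array and 23.0, under the floor, on the resident array, at least 2.19-fold higher. Serpinb2, an inhibitor of plasminogen activators, had 350 on the elicited array, against 10677 on the resident array (30.5-fold lower). Plaur, the urokinase receptor, had 5657 on the elicited array, against 3092 on the resident array. Plgrkt, a plasminogen receptor, had a log2 ratio of -0.08. Plau, urokinase, was dim, with 110 on the elicited array, against 39.6 on the resident array.

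**Figure D2:**
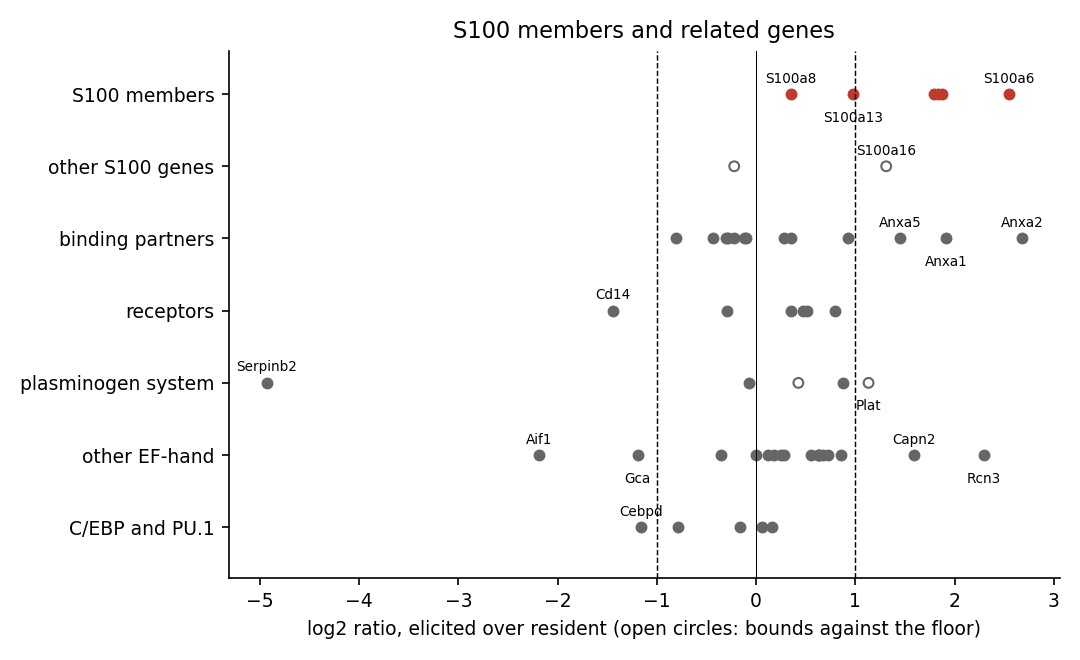
Log2 ratio of elicited over resident signal for the 6 S100 members (red) and for each measured gene in 6 lists of related genes (grey). Open circles are bounds against the floor, dashed lines mark 2-fold, and genes past 2-fold are named in the grey rows. The annexins Anxa1, Anxa2 and Anxa5 lie past 2-fold, as do S100a6, S100a10, S100a1 and S100a4, while the other measured partners lie within it.

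S100a1, best known from heart and skeletal muscle, where it regulates calcium cycling, was bright in these cells. Its brighter probe set had a signal of 15176 on the elicited array, against 4258 on the resident array (3.56-fold, log2 1.83). Its other probe set had 4665 on the elicited array, against 1526 on the resident array (3.06-fold, log2 1.61). The 2 ratios differed by less than the spread between probe sets of a gene. The suffix of the first marks a probe set that can match more than 1 transcript, so its identity is less certain than that of the second. S100a13, which takes part in the release of proteins lacking a signal peptide, had a signal of 5930 on the elicited array, against 3007 on the resident array. Its 1.97-fold ratio (log2 0.98) was just under the threshold, and it became 1.29 on the log2 scale after scaling to equal medians. The other scalings lowered it to 0.78 (quantile), 0.73 (loess) and 0.61 (hybridisation controls).

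The starts of S100a1 and S100a13 face away from each other on mouse chromosome 3. In RefSeq's promoter entries (GRCm38.p6) 104 bases separate them, and these are shown because both genes read out from this stretch. The stretch is chr3:90514331-90514434 on the plus strand, 5′ to 3′, with the S100a13 start just after its last base and the S100a1 start just before its first. It is all in lower case because none of the 7 motifs searched lies in it.
S100a1 to S100a13: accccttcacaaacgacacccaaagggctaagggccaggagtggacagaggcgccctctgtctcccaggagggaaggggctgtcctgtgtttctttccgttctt

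S100a8, or MRP8, is one chain of calprotectin. Its signal was 4675 on the elicited array, against 3663 on the resident array, a 1.28-fold ratio (log2 0.35) that was smaller than the spread between probe sets and turned to -0.02 on the log2 scale when the arrays were scaled on the hybridisation controls. S100a9, or MRP14, the other chain, had a signal of 3.72 on the elicited array, against 41.6 on the resident array, both under the floor, so no ratio is given. Levels of different probe sets cannot be set against each other, so the balance of the 2 chains is not given. The S100a8 probe set carries the suffix of sets that can match more than 1 transcript.

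Neutrophil markers, which usually accompany calprotectin, were mostly dim or lower. Of 12 with a probe set, 5 exceeded the floor on the elicited array and 7 did on the resident array, and of these 7 none was called higher and 5 were called lower (median log2 ratio -1.17). Camp and Cd177 exceeded the floor on the resident array only, so their ratios could only be downward. Cd177 was 1 of the 5 called lower, and its bound was the median. The summed signal of the 12 was 4326 on the elicited array, against 10661 on the resident array. The granule genes Mpo, Elane, Ltf and Ngp and the chemokine receptor gene Cxcr2 were not measured. Csf3r, the receptor for the neutrophil growth factor G-CSF, had 2270 on the elicited array, against 5412 on the resident array.

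Among 6 measured receptors and co-receptors for extracellular S100 proteins, Cd14 was called lower and the remaining 5 neither (median log2 ratio 0.42). Tlr4, the endotoxin receptor that also responds to calprotectin, had a signal of 1250 on the elicited array, against 899 on the resident array. Its partner Ly96 had 1498 on the elicited array, against 1836 on the resident array, and Cd14, the co-receptor of both, 6481 on the elicited array, against 17665 on the resident array (2.73-fold lower). Cd36, a scavenger receptor, had a log2 ratio of 0.79 at its brightest probe set and 1.52 at the highest of 3. Ager, which encodes the receptor RAGE, and Mcam were not measured. Factors that act on calprotectin genes in myeloid cells mostly lay within 2-fold at their brightest probe set. Of 5 C/EBP and PU.1 genes measured, Cebpd was 2.23-fold lower and 4 lay under 2-fold (median log2 ratio -0.16). The other Cebpd probe set had a log2 ratio of -0.95, and Cebpg ranged from -1.18 to 0.29 over 3 probe sets. Cebpb had 11820 on the elicited array, against 13240 on the resident array, and Spi1, which encodes PU.1, had 4269 on the elicited array, against 4109 on the resident array.

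Short stretches before the starts of 4 genes are shown for comparison: S100a6 and S100a4, near neighbours that were both called higher, and S100a8 and S100a9, the adjacent calprotectin genes. Each gives the 120 bases before the RefSeq start in GRCm38.p6, 5′ to 3′ on the gene's own strand, with motif matches in capitals. The 4 stretches are chr3:90612774-90612893 (plus strand) for S100a6, chr3:90603650-90603769 (plus) for S100a4, chr3:90668951-90669070 (plus) for S100a8 and chr3:90695722-90695841 (minus) for S100a9.
S100a6: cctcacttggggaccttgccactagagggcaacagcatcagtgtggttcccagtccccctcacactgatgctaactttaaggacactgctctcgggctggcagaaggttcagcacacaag
S100a4: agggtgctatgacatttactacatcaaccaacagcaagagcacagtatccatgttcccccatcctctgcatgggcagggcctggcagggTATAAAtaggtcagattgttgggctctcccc
S100a8: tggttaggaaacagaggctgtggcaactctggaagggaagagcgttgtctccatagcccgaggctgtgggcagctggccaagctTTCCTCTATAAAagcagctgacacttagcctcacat
S100a9: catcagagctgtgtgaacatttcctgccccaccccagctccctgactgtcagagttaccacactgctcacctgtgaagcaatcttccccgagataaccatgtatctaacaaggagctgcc

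The motif search covered 300 bases, 250 before and 50 from the start on, on both strands, in the 7 members with a RefSeq promoter entry. These 7 include S100a11 but not S100a10, which had no entry and was not searched. The motifs, chosen after the ratios were known, were the TATA box TATAAA, the CCAAT box CCAAT, the GC box GGGCGG, the AP-1 site TGAGTCA, the E-box CACGTG, a C/EBP core TTGCNNAA and a PU.1 core GAGGAA. The TATA box was present in S100a4 (31 to 26 bases before the start), S100a8 (30 to 25 bases before) and S100a9 (bases 1 to 6 from the start on, outside the printed stretch), against 13.6% of all 32851 promoter entries. In S100a8 the TATA box directly followed a PU.1 core on the minus strand, and the PU.1 core was present in 3 of 7 members, against 28.3% of entries. The C/EBP core was present in S100a9 alone among the 7, against 10.8% of entries. S100a6 held an E-box (7.15% of entries) after its start and a CCAAT box (37.4%) far upstream. The AP-1 site (5.20%) was present in S100a11 alone among the 7, and the GC box (35.7%) in S100a9 and S100a11. Of the 3 members with a TATAAA match, S100a4 had a 3.47-fold ratio, S100a8 a 1.28-fold ratio, and S100a9 had no ratio. A link between motifs and ratios was not tested. A match is a description of letters and not a site of binding.

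The family sits together: 15 of 18 mouse S100 genes in the RefSeq table lie on chromosome 3, and S100a1 to S100a9 form a run of 12 with no other protein-coding gene between them. S100a11 and S100a10 are neighbours farther along, beyond 55 other genes. S100a4 and S100a6 were both called higher. S100a5 between them, a gene known from olfactory neurons, had 10.6 on the elicited array, under the floor, and 95.8 on the resident array, a bound within 2-fold. S100a3, upstream of S100a4, was under the floor on both (12.2 on the elicited array, against 19.3 on the resident array).

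**Figure D3:**
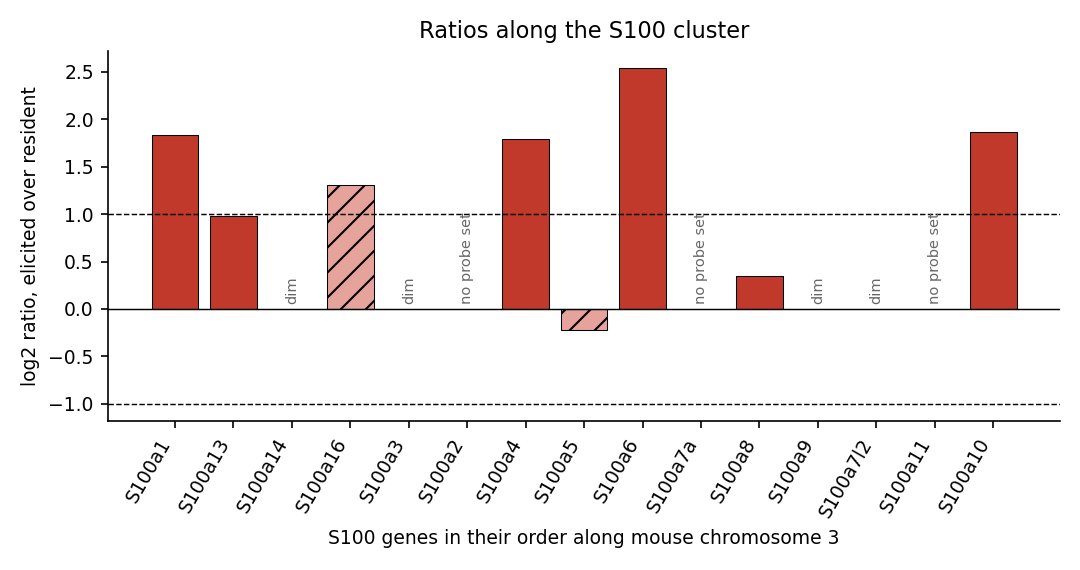
Log2 ratio of elicited over resident signal for the S100 genes in their order along chromosome 3 (rank, not distance). Red bars are the listed members, pale hatched bars are other S100 genes whose ratio is a bound against the floor, "dim" marks genes under the floor on both arrays, and dashed lines mark 2-fold. Bars over 2-fold stand at S100a1, S100a16, S100a4, S100a6 and S100a10.

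Of the other S100 genes listed, 6 of 8 had a probe set of their own (S100a7a and S100z had none, nor did S100a2, which was not listed) and 2 were measured, each over the floor on 1 array, with 1 called higher, none lower and a median log2 ratio of 0.55. S100a16, a broadly used family member, had a signal of 204 on the elicited array and 22.6, under the floor, on the resident array, at least 2.48-fold higher, and its other probe set was at least 0.46 higher on the log2 scale. S100b, the glial S100 protein, had 48.1 on the elicited array, against 4.43 on the resident array, both under the floor. S100a3, S100a14 and S100g were under the floor on both arrays, as was S100a7l2, which was not on the list. The family genes over the floor on both arrays were S100a1, S100a4, S100a6, S100a8, S100a10 and S100a13, among those with a probe set of their own.

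Other EF-hand proteins served as a comparison by protein fold. Of 17 measured, 2 were called higher, 2 lower and 13 neither (median log2 ratio 0.56). Capn2, a calpain protease subunit, was 3.01-fold higher and Rcn3, a calcium-binding protein of the endoplasmic reticulum, 4.91-fold higher. Gca, the neutrophil protein grancalcin, was 2.29-fold lower, with a log2 ratio of -0.97 at its other probe set. Aif1, a macrophage actin-bundling protein, had a signal of 1068 on the elicited array, against 4863 on the resident array (4.55-fold lower). Over all measured genes 8.04% were called higher and 11.8% lower, so the 2 and 2 of 17 stood near the shares of genes at large. The share called higher was 4 of 6 among the S100 members and 2 of 17 here, a difference that was not tested.

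**Figure D4:**
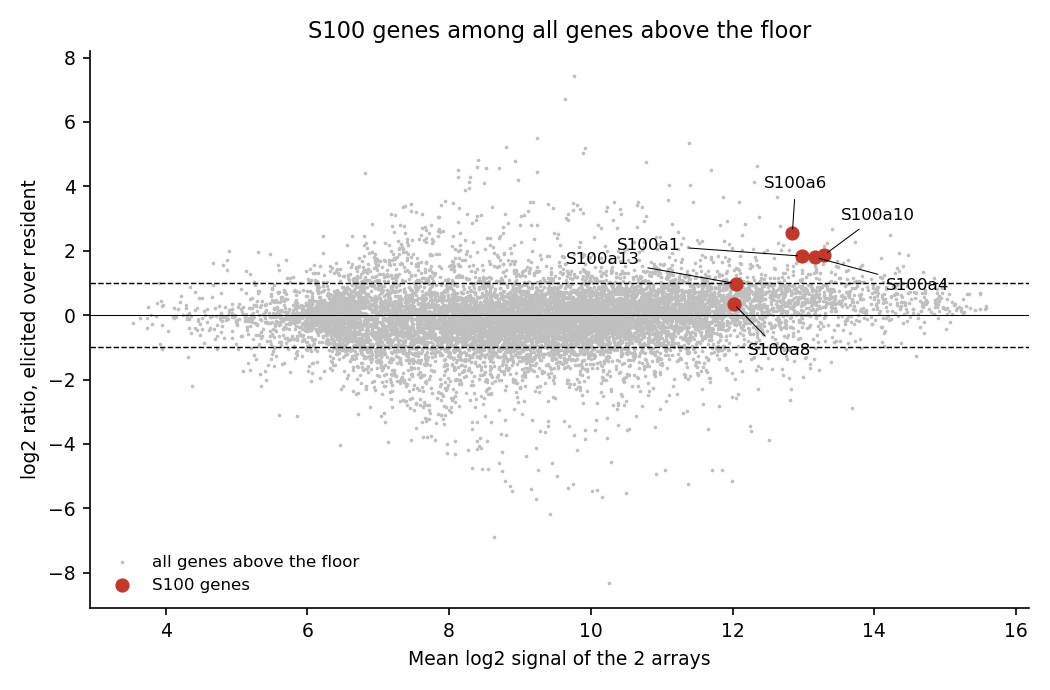
Log2 ratio of elicited over resident signal against the mean log2 signal of the 2 arrays, with each of 11499 measured genes in grey, the 6 S100 members in red and 2-fold dashed. The S100 members lie at the right of the plot, and 4 of them are above the upper dashed line.

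Pan-macrophage genes exceeded the floor on both arrays, and markers of other cells differed between them. Of 7 pan-macrophage genes measured, 1 was called higher, 1 lower and 5 neither (median log2 ratio -0.20), and Csf1r, the receptor of the macrophage growth factor, had 32074 on the elicited array, against 36845 on the resident array, with a log2 ratio of -1.76 at the lowest of its 3 probe sets. Of 12 genes of resident peritoneal macrophages, 10 were called lower (median -4.91). B cell markers were called lower in 6 of 8 and higher in 1, Blnk (median -4.04). Blnk had 13826 on the elicited array, against 6161 on the resident array, whereas Cd79b had 143, against 3417, and Ms4a1 139, against 5281. Which cells the Blnk signal came from was not tested. T cell markers were called lower in 2 of 4 and higher in 1, Cd28 (median -0.51). Mast cell markers were called lower in 5 of 5 (median -1.70) and dendritic cell markers in 2 of 3 (median -2.09). None of these mast and dendritic cell markers exceeded the floor on the elicited array, so their ratios could only be downward. The same held for Cd3d and Cd3g, the 2 lower T cell markers. Spiked hybridisation controls gave 1.29-fold more signal on the elicited array, in 9 of 9 probe sets. The 3′ to 5′ signal ratio of beta-actin was 1.22 on the elicited array, against 1.19 on the resident array. On the scale of the hybridisation controls S100a6, S100a10, S100a1 and S100a4 had log2 ratios of 2.17, 1.50, 1.46 and 1.42. The part of the other cells' markers in the S100 ratios was not tested.

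**Figure D5:**
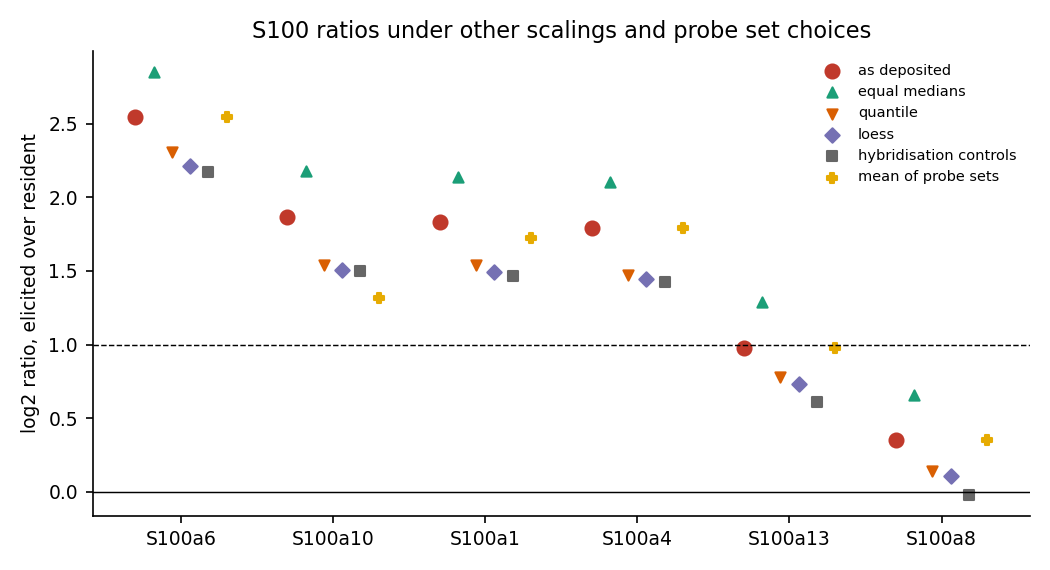
Log2 ratio of elicited over resident signal of the 6 S100 members as deposited (red) and after 4 other scalings or with the mean of a gene's probe sets, with 2-fold dashed. S100a6, S100a10, S100a1 and S100a4 stay above 2-fold in each, S100a13 crosses it with equal medians, and S100a8 falls just under 0 on the hybridisation controls.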

How the data were processed

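RNA was hybridised to 1 Affymetrix 3′ array per group after cRNA synthesis from 100 ng of total RNA, per the labels' protocols. The authors deposited linear signal intensities. Per the submitters' processing notes the tool was MAS5, of no stated version and without detection calls in the table used. The arrays share a trimmed mean (499.8 on both). Gene names came from the platform annotation and were brought up to RefSeq GRCm38.p6 through the gene ID (34741 of 34945 probe sets matched). Another 932 probe sets list several genes and were left out, as were array controls.

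The floor was the 95th percentile of 126 probe sets of olfactory, vomeronasal and taste receptors and keratin-associated proteins over both arrays. A gene with several probe sets was read from the brightest on average (log2 scale). The comparison was a log2 ratio of floored signals with no test, since 2 arrays allow none, and the number of arrays limits the precision. The members, the 6 lists of related genes and the 9 marker lists were chosen with earlier results of these data known. All members, the other S100 genes, genes of the 6 lists past 2-fold and genes a sentence turned on were named; other genes, the marker genes included, were chosen after their values were seen. Alternatives changed the scaling (equal medians, quantile, loess with a span of 0.4, hybridisation controls), the floor, the probe set and the filter. The calculations were tested on simulated data. Python 3.11.15, numpy 2.4.6, pandas 2.3.3 and statsmodels 0.14.6 were used.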

Additional observations from a re-analysis of the deposited data

How the results depend on the processing

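Over the 11 alternatives tried, 4 or 5 S100 members were called higher and none lower. The fifth was S100a13 with equal medians. The median log2 ratio of the members ranged from 1.44 on the hybridisation controls to 2.12 with equal medians. The scalings moved the median of all genes too, from -0.03 as deposited to 0.25 (equal medians), 0.16 (quantile), 0.07 (loess) and -0.37 (hybridisation controls). Relative to it the members' median was 1.85 as deposited and 1.88, 1.35, 1.40 and 1.81 under these scalings. The share of all measured genes called higher was 14.2%, 11.1%, 9.37% and 4.53% in the same order, and called lower 7.40%, 8.00%, 9.28% and 20.4%. Of 66 recomputed member ratios 65 moved by less than the probe-set SD, and S100a10 moved to 1.32 with the mean over its probe sets, which includes the dim one. Many of the 66 could not move. Other floors and filters leave members far over the floor unchanged, and the mean over probe sets leaves genes with 1 probe set unchanged. S100a8 ranged from -0.02 to 0.66. No paired analysis was possible because each group has 1 array, and no array could be left out for the same reason. A floor at the 99th percentile (174) or from the resident array alone (92.7) changed no member ratio, and S100a9 was under each of them.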

Other observations

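Genes around the S100 run on chromosome 3 were looked at as a description, chosen after the S100 ratios were seen. The 3 protein-coding genes just outside the run on the S100a1 side were within 2-fold. Chtop, a chromatin target of arginine methylation, had a signal of 3431 on the elicited array, against 4036 on the resident array. Snapin, a vesicle fusion adaptor, had 3320 on the elicited array, against 2384 on the resident array, and Ilf2, an RNA-binding protein, 793 on the elicited array, against 663 on the resident array. Between S100a9 and S100a11 lie 55 further genes, among them the cornified envelope genes of skin. Of these, 36 had a probe set naming the gene alone, 7 were measured, and none was called higher or lower. All of the 7 except Lce1i had signals of at most 114 on either array. With a floor of 82.2 these could not reach a 2-fold ratio, so the absence of calls says little about them. Lce1i, 1 of the 7, had a signal of 192 on the elicited array, against 128 on the resident array.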
